A study of Mus musculus with 2 samples.

Results

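The neurosphere cells without Krt8 were the kept cells of the neurosphere library that held 0 unique molecular identifiers (UMIs, each the tag of 1 captured RNA molecule) of the keratin gene Krt8. Cells were kept with at least 1000 UMIs and the study's minimum number of genes, after mitochondrial and ribosomal genes were dropped. Those without Krt8 numbered 1055 of 4276 kept neurosphere cells, a share of 24.7% (exact binomial 95% interval 23.4% to 26.0%), and of 9327 kept cells in both libraries of the study. They were chosen by their Krt8 UMIs, so that the absence of Krt8 is the rule and not a finding. The study sequenced GL261, a mouse glioma line of the C57BL/6 strain whose labels call the cells an astrocytoma, as 1 library of adherent cells and 1 library of neurosphere cells, free-floating aggregates that form in medium with growth factors. Both groups came from DMEM with 10% FBS and antibiotics. The neurosphere medium held EGF and FGF, each at 20 ng/ml, and the supplement B-27 diluted 1:50, and growth in it lasted 12 days. Neurospheres were broken up with trypsin and a series of pipette tips, and both cell samples were frozen in medium with DMSO before the libraries were made. With 1 library per condition there were no replicates, no test was run, and every interval given here covers counting error only.

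Keratins 8 and 18 are partners that assemble into the intermediate filaments of simple epithelia, where neither is stable in a filament without the other. Glial cells and their precursors normally rely on vimentin, nestin and glial fibrillary acidic protein in place of keratins. Adherent GL261 cells held little Krt8, at 3.93 CPM (UMIs in 1000000 UMIs; 95% Poisson interval 3.38 to 4.55), with a UMI in 136 of 5051 cells. Over all kept neurosphere cells Krt8 stood at 3025 CPM, and the median cell held 8 UMIs. The cells with Krt8 were divided for comparison into the top 25% of kept cells by Krt8 UMIs per UMI (Krt8-high, 1069 cells) and the remaining cells in 2 equal parts (Krt8-low and Krt8-mid, 1076 cells each). Krt8 was at 184 CPM in Krt8-low cells, 2019 CPM in Krt8-mid cells and 9775 CPM in Krt8-high cells.

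Krt8 (ENSMUSG00000049382) lies on the minus strand of chromosome 15 from 101996698 to 102004482 in GRCm38, and Krt18 (ENSMUSG00000023043) on the plus strand from 102028180 to 102032027, with 23697 bases and no annotated gene between them. Hes5 (ENSMUSG00000048001), a repressor that active Notch receptors induce through the DNA-binding factor RBPJ and one of the genes that differed most below, is found on chromosome 4 between 154960923 and 154962371 (plus strand). The 250 bases before the start of these genes (RefSeq, GRCm38.p6, gene strand) are shown for the marker pair and the Notch target, with any match to the RBPJ core TGGGAA on either strand in capitals. They cover chr15:102004343-102004592 for Krt8, chr15:102027966-102028215 for Krt18 and chr4:154960673-154960922 for Hes5. The RefSeq starts of the keratin genes lie inside the gene bodies given above, so that 140 bases of the Krt8 stretch, with its match, and 36 bases of the Krt18 stretch fall within them.
Krt8: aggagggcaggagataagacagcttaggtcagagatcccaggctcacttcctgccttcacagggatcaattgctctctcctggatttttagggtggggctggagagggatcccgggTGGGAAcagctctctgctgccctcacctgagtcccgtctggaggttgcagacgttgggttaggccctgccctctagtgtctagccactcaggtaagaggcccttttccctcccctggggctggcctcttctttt
Krt18: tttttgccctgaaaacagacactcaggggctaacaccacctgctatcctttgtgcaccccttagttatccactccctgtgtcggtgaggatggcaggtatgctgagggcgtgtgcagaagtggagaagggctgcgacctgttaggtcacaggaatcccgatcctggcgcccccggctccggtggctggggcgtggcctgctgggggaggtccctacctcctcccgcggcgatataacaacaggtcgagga
Hes5: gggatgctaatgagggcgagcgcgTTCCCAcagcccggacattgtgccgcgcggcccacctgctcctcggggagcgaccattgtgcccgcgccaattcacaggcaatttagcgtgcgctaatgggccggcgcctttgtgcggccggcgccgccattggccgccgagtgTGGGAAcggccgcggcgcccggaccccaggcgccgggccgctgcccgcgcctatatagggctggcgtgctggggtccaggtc
The Hes5 stretch held 2 matches, the Krt8 stretch 1 and the Krt18 stretch 0. The core occurred in 21.5% of 27025 promoter stretches of the same length, in 19.7% of the stretches before genes tested below, in 19.9% of those before genes over 2-fold higher in cells without Krt8 and in 18.9% of those before genes over 2-fold lower. The TATA box (TATAAA), the GC box (GGGCGG) and the AP-1 site (TGANTCA) were also searched on both strands and were in none of these 3 stretches. They occurred in 12.97%, 32.9% and 6.87% of all stretches, and in 5.94%, 61.7% and 3.85% of the stretches before genes tested below.

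Cells without Krt8 were the shallowest of the neurosphere groups, which matters since a cell with fewer UMIs is more likely to show 0 of any gene. Their median was 10657 UMIs and 3944 genes, against 14800 UMIs in Krt8-low, 14724.5 UMIs in Krt8-mid and 12928 UMIs (4188 genes) in Krt8-high cells. The median mitochondrial share of UMIs was 4.21% in cells without Krt8 and 4.03% in Krt8-high cells, and the median ribosomal share 14.9% and 17.1%. Of the cells without Krt8, 577 had at least 10000 UMIs. When the cells with at least 5000 UMIs were thinned to 5000 UMIs at random, 1449 cells showed 0 Krt8 UMIs. This set left out 36 shallower cells without Krt8. The UMIs of each cell were also divided at random in 2 parts, and the 1381 cells with 0 Krt8 UMIs in the first part held 51.7 CPM of Krt8 in the other (47.1 to 56.7), against 9718 CPM in the top 25% chosen on the first part. Krt8 mRNA below what this depth shows thus cannot be told apart from none in a single cell. Of the cells next to the threshold, 470 held 1 Krt8 UMI and 203 held 2. The Krt8-high cells began at 42.4 Krt8 UMIs per 10000 UMIs, and the cells just below reached 42.1. No doublets were removed. The libraries shared 12 cell barcodes, of which 1 belonged to a cell without Krt8.

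Krt18, the partner of Krt8 and not used by the rule, was nearly absent from cells without Krt8 and present in a minority of those with the most. It had a UMI in 178 of 1069 Krt8-high cells (16.7%, or 11.5% when thinned to 5000 UMIs), where 10 cells held 34.6% of its UMIs, and in 6.15% of all kept neurosphere cells. Cells without Krt8 held 2 UMIs of Krt18 in all, 0.154 CPM (0.0186 to 0.556), while Krt18 was at 1.36 CPM in Krt8-low, 12.0 CPM in Krt8-mid and 90.4 CPM in Krt8-high cells (85.8 to 95.2). The log2 fold change of cells without Krt8 against Krt8-high cells was -9.20 (95% interval -12.25 to -7.34). Krt8-high cells held 85.5% of the 1692 Krt18 UMIs of the kept cells, and Krt8 was 108 times as high as Krt18 in them, both in UMIs. In the random division, Krt18 was at 0.681 CPM in the second part of the cells chosen for 0 Krt8 UMIs in the first, against 95.5 CPM in the top 25%.

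Nlrp4e, a member of the NLR family, was also among the lowest genes, at 1.54, 2.89, 14.5 and 70.2 CPM from cells without Krt8 to Krt8-high cells. Its gene body on chromosome 7 holds the processed pseudogene Krt8-ps on the same strand (from 23357125 to 23358069), which has no entry of its own in the count table and matched the Krt8 transcript at 928 of 941 aligned bases (98.6%), with 299 identical bases in the longest run. Nlrp4e UMIs numbered 7.18 for each 1000 Krt8 UMIs in Krt8-mid cells and 7.18 in Krt8-high cells, but 15.7 in Krt8-low cells, and cells without Krt8 held 20 Nlrp4e UMIs. Reads of Nlrp4e, of the pseudogene and of Krt8 itself cannot be told apart in these counts, and Nlrp4e is given here as uncertain.

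**Figure D1:**
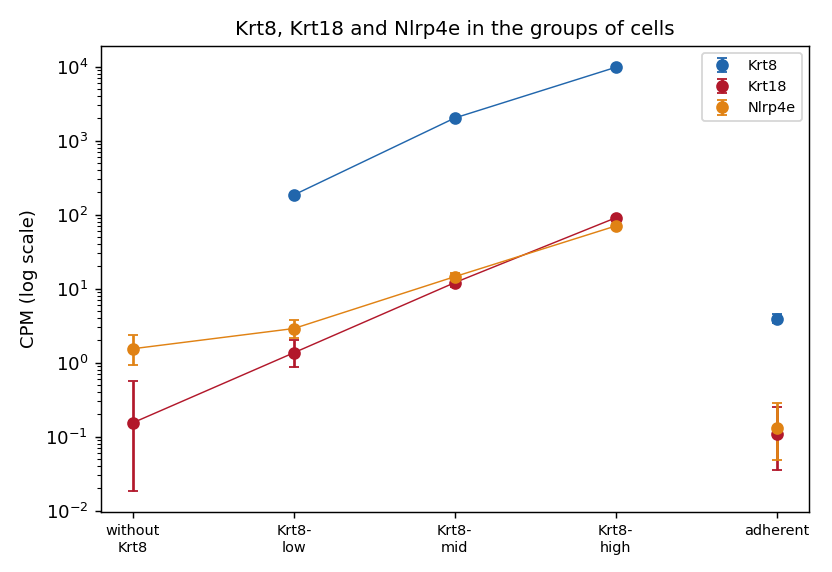
CPM of Krt8, Krt18 and Nlrp4e on a log axis in the 4 groups of neurosphere cells and in adherent cells, with 95% Poisson intervals; Krt8 has no point in cells without Krt8, which were chosen for 0 UMIs. Krt18 climbs from 0.154 to 90.4 CPM and Nlrp4e from 1.54 to 70.2 CPM as Krt8 climbs to 9775 CPM.

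Beyond the keratins, cells without Krt8 differed from Krt8-high cells by over 2-fold in a small share of genes. Of 11045 genes with at least 100 UMIs over both groups, Krt8 left out, 387 were over 2-fold higher in cells without Krt8 (3.5%) and 272 were over 2-fold lower (2.46%). The median log2 fold change of all these genes was 0.13. With TMM scaling, which moved all values down by that much, 285 genes were higher and 336 lower. For 210 of the higher and 166 of the lower genes the whole interval lay past 2-fold. The differences were mostly graded: 329 of the 387 higher genes were lower at each step from cells without Krt8 through Krt8-low and Krt8-mid to Krt8-high cells, and 239 of the 272 lower genes were higher at each step. Of all 11045 genes, 2451 were lower and 905 higher at each step, but the outer groups chose the 387 and 272, so that only the place of the middle groups is free in their counts.

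Of the 12 highest ranked genes, Lhfpl3 and Lsamp were carried by the most cells without Krt8, 700 and 647. Lhfpl3, a membrane protein gene typical of oligodendrocyte precursors, was at 316 CPM in cells without Krt8 (306 to 326), 150 CPM in Krt8-low, 52.8 CPM in Krt8-mid and 24.9 CPM in Krt8-high cells (22.5 to 27.5), a log2 fold change of 3.67 (3.52 to 3.82). With every cell thinned to 5000 UMIs, 54.3% of the cells without Krt8 had an Lhfpl3 UMI, against 8.04% of Krt8-high cells. Lsamp, a neural cell adhesion molecule, went from 304 CPM to 38.5 CPM, and 48.8% against 12.2% of thinned cells had a UMI. Fabp7, the brain lipid-binding protein of radial glia, was at 178 CPM without Krt8 and 15.8 CPM in Krt8-high cells, an 11.3-fold difference, with a UMI in 28.7% and 3.12% of thinned cells. Erbb3, a neuregulin receptor, stood at 87.7 CPM and 10.7 CPM, and Dcc, the netrin receptor, at 48.7 CPM and 5.63 CPM. The thinned shares rest on 1019 cells without Krt8 and 1057 Krt8-high cells, since 36 and 12 were shallower. As all cells are of 1 line, the share of cells with a UMI that free RNA alone would give could not be measured.

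Enpp2, which encodes the lysophospholipase autotaxin, was 10.5-fold higher, at 53.9 CPM against 5.13 CPM. Timp4, an inhibitor of metalloproteinases, was at 12.1 CPM and 0.688 CPM, and Cox6a2, the muscle form of a cytochrome c oxidase subunit, at 26.8 CPM and 2.38 CPM. Few cells carried them: 10 of 167 cells without Krt8 with an Enpp2 UMI held 45.5% of its UMIs there, and 10 of 70 with Cox6a2 held 49.0%. Cluster 9 (described below) held 57.6% of the Cox6a2 UMIs of cells without Krt8. Each of these was lower in Krt8-low cells than in cells without Krt8 and lower again in Krt8-mid cells, as the bar plots of the highest genes show.

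The genes Lcn2, Ccl2 and Nppb came from fewer cells still. Lcn2, an iron-trafficking acute phase protein, was at 41.0 CPM in cells without Krt8 and 0.813 CPM in Krt8-high cells, but only 22 cells without Krt8 had a UMI of it, and 10 of them held 96.6% of its UMIs. Ccl2, a chemokine that attracts monocytes, was at 64.8 CPM and 3.13 CPM, from 11 and 12 cells. Nppb, which encodes brain natriuretic peptide, had 207 UMIs in 8 cells without Krt8 and 0 UMIs in Krt8-high cells, at least 84.8-fold higher with 3 counts over the group as the floor. After the 10 cells with the most UMIs of the gene were left out of each group, a comparison chosen after seeing the data, Ccl2 was at 0.0780 CPM and 0.127 CPM, no Nppb UMI remained, and Lcn2 was at 1.40 CPM against 0 UMIs. Lhfpl3 was then at 289 and 19.1 CPM, and Lsamp at 272 and 31.8 CPM. Where few Krt8-high cells carried a gene, this step also took most of its UMIs there, 90.9% for Timp4 and 79.5% for Hes5, so that it says little of those genes.

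**Figure D2:**
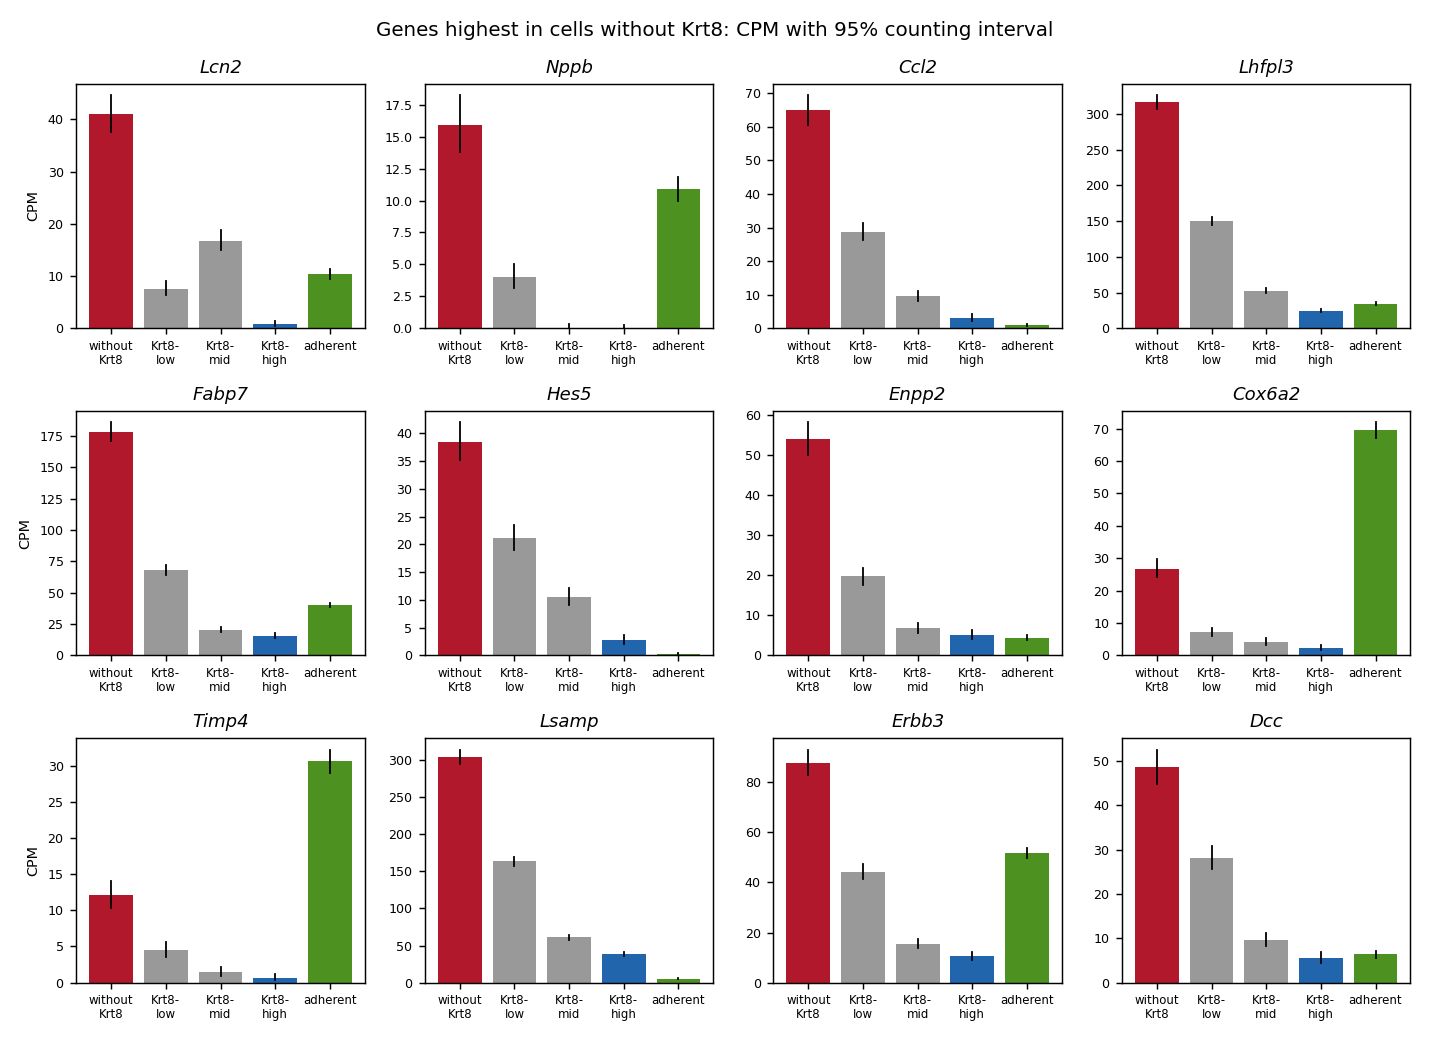
CPM of the 12 genes ranked highest in cells without Krt8 (red) against Krt8-high cells (blue), with Krt8-low and Krt8-mid cells in grey and adherent cells in green; black lines are 95% Poisson intervals and each axis starts at 0. Lhfpl3, Fabp7, Hes5, Lsamp, Erbb3 and Dcc step down with Krt8, whereas Lcn2 does not (7.58 CPM in Krt8-low and 16.8 CPM in Krt8-mid cells).

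Notch signalling, in which a ligand on 1 cell triggers the cleavage of a receptor on its neighbour and so switches on Hes and related repressors that hold neural progenitors undifferentiated, had the highest median of the 40 gene lists. Of its 11 genes tested, 6 were over 2-fold higher in cells without Krt8 and 0 lower, beside 3.5% of all genes, with a median log2 fold change of 1.62. Among the ligands, Jag1 was at 30.8 CPM without Krt8 and 8.19 CPM in Krt8-high cells (log2 fold change 1.91), whereas Dll1 was at 56.0 and 68.9 CPM and Dll3 at 259.5 and 232 CPM. Among the receptors, Notch1 was at 34.6 and 11.3 CPM (1.62) and Notch2 at 34.0 and 17.1 CPM (0.99). Of the nuclear factors, Maml2, a coactivator, was at 98.4 and 27.4 CPM, and Rbpj at 38.4 and 36.5 CPM, with an interval of the log2 fold change that held 0. Among the targets, Hes5, whose upstream stretch is printed above, was at 38.4, 21.2, 10.6 and 2.75 CPM from cells without Krt8 to Krt8-high cells (3.80, interval 3.36 to 4.28), Hes1 at 29.0, 16.1, 9.63 and 7.76 CPM, and Nrarp, a feedback inhibitor of the pathway, at 8.15, 4.13, 2.13 and 1.69 CPM. Hes5 came from few cells, as 84 cells without Krt8 had a UMI, and 5.69% of thinned cells without Krt8 and 0.946% of Krt8-high cells did. With the 10 cells that held the most left out, 228 of the 500 Hes5 UMIs of cells without Krt8 remained.

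Of 17 genes of the oligodendrocyte lineage tested, 8 were over 2-fold higher and 0 lower, beside 3.5% and 2.46% of all genes, with a median of 0.72. The lineage factors Olig1 (1450 and 1306 CPM, log2 fold change 0.15), Olig2 (0.11) and Sox10 (0.41) were within 2-fold, while the lineage factor Nkx2-2 was at 18.2 and 7.51 CPM (1.28, interval 0.96 to 1.61). Pdgfra, the growth factor receptor of precursors, was at 10.4 and 1.63 CPM (2.67), and Gpr17, a receptor of committed precursors, at 24.5 and 6.13 CPM (2.00). The myelin gene Mbp (281 and 41.5 CPM, 2.76) was higher too, while the myelin genes Cnp (560 and 553 CPM, 0.02) and Mog (14.3 CPM in both) were not. The marker levels of the lineage are high in every group: its 8 fixed markers summed to 3295 CPM in cells without Krt8 and 2236 CPM in Krt8-high cells.

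Among 7 astrocyte genes tested, 3 were over 2-fold higher and 2 lower, beside 3.5% and 2.46% of all genes, with a median of 1.00. Slc1a3, a glutamate transporter of astrocytes and radial glia, was at 157 CPM without Krt8 and 30.3 CPM in Krt8-high cells (2.38), and Aldoc, a brain form of aldolase, at 41.2 and 6.26 CPM (2.72). Glul, which makes glutamine from glutamate, was at 26.0 and 72.5 CPM (-1.48), and Aldh1l1, a folate enzyme, at 2.46 and 12.9 CPM (-2.39). The defining markers Gfap (0.615 CPM without Krt8) and Aqp4 (0 UMIs in every group) were near or at 0. Of 13 neural stem cell genes tested, 4 were higher (Sox2, Hes1, Fabp7 and Hes5, of which Hes1 and Hes5 are also on the Notch list) and 1 lower, beside the same shares of all genes. Sox2, a factor of neural progenitors, was at 259 and 116 CPM (1.17), and Id1, an inhibitor of differentiation that BMP signalling induces, at 113 and 230 CPM (-1.02). The related genes Id3, at 263 and 142 CPM (0.89), and Id2, at 90.3 and 53.8 CPM (0.75), went the other way. Nes, which encodes nestin, was at 166 and 231 CPM (-0.48), and Vim, which encodes vimentin, at 1595 and 1992 CPM (-0.32), both lower than in Krt8-high cells. Prph, a filament of peripheral neurons, was at 2.08 and 8.19 CPM, and the nuclear lamin gene Lmna at 39.6 and 103 CPM.

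Feedback genes of ERK signalling, the pathway that the growth factors of the medium act through, had a median of 0.67 over 13 genes tested, with 3 higher and 0 lower, beside 3.5% and 2.46% of all genes: Etv1 (1.24), Dusp6 (1.19) and Spry4 (1.01). Fosl1, on the same list, was at 3.23 and 6.38 CPM (-0.98). All 24 genes of the G2/M phase were above 0 in log2 fold change, with none past 2-fold and a median of 0.52, led by Tpx2 (103 and 53.6 CPM, 0.94). This was not a gradient with Krt8, since the list took 0.433% of UMIs in cells without Krt8, 0.508% in Krt8-low, 0.487% in Krt8-mid and 0.316% in Krt8-high cells. The 24 genes of the G1/S phase had a median of 0.17. In the 50% of cells with the lowest share of UMIs on both lists, 348 of 9286 genes tested were higher and 226 lower. Of these, 227 and 184 were among those of all cells.

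**Figure D3:**
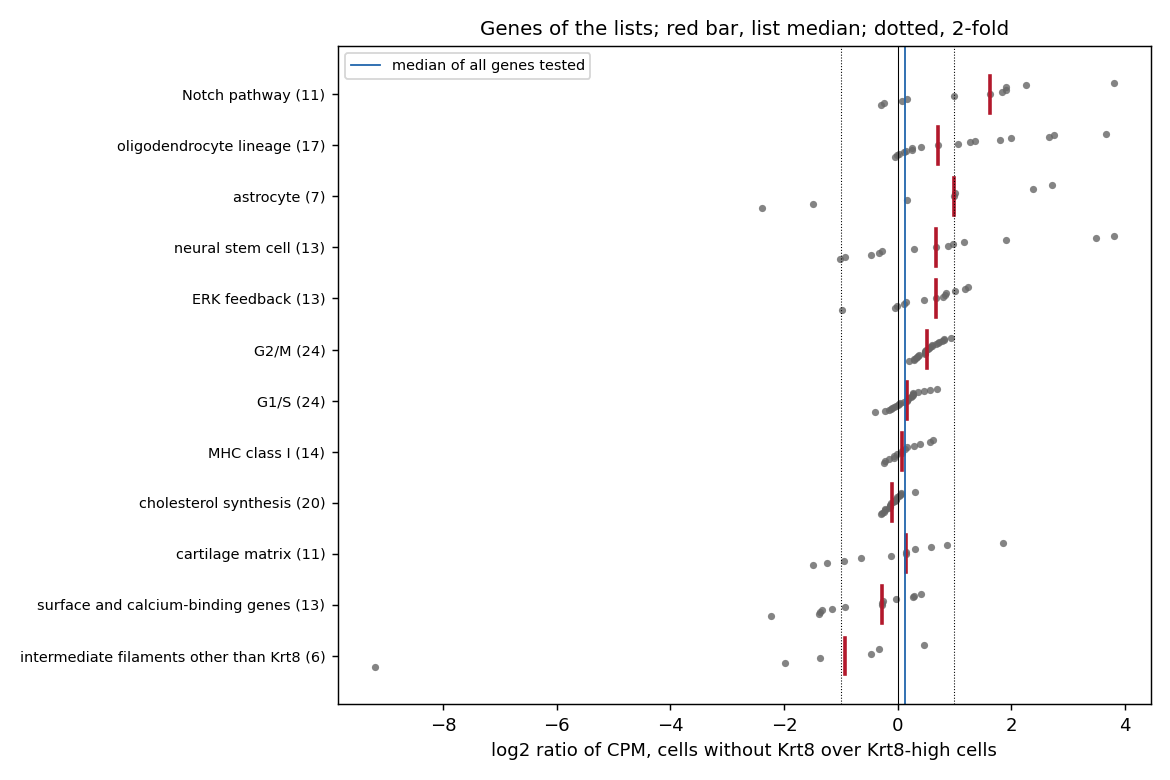
Log2 fold change of cells without Krt8 against Krt8-high cells for the genes tested of 12 lists (their number in brackets), 1 grey point a gene, with the list median in red, the median of all genes tested (0.13) in blue and 2-fold dotted. The Notch list has its median at 1.62 and the intermediate filaments other than Krt8 at -0.92, where Krt18 is the point at -9.20.

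The genes lower in cells without Krt8 included, beside Krt18 and Nlrp4e, many that few cells carried. Mucl2, a small mucin-like protein gene, was at 0.846 CPM without Krt8 and 73.2 CPM in Krt8-high cells, where 10 cells held 73.5% of its UMIs. Tmem171 was at 0.846 and 30.02 CPM, with a UMI in 10 and 196 cells. Chit1, a chitinase, was at 2.23 and 36.4 CPM, Psca, a surface antigen of prostate and bladder epithelium, at 1.92 and 24.8 CPM, Ano3, of the anoctamin family, at 1.77 and 29.5 CPM, and Sorcs2, a receptor for proneurotrophins, at 0.461 and 12.9 CPM. Esp15 (1.15 and 36.5 CPM) and Esp16 (3.46 and 41.3 CPM) belong to a family of gland peptides with close copies, so that reads may be divided between them. Gm34933, a long noncoding RNA, was at 2.15 and 29.0 CPM. In Krt8-high cells, the genes named from Mucl2 on each had a UMI in 60 to 196 cells.

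Lower genes of high abundance lay on a list of adherent-type surface and calcium-binding genes, galectins among them. Of 13 genes tested on this list, 5 were over 2-fold lower and 0 higher, beside 2.46% of all genes. S100a6 was at 333 CPM in cells without Krt8, 508 CPM in Krt8-low, 587 CPM in Krt8-mid and 1557 CPM in Krt8-high cells (-2.22), Lgals1, which encodes galectin-1, at 1539, 2171, 3096 and 3988 CPM (-1.37), and Lgals3, for galectin-3, at 242 and 631 CPM (-1.38). S100a10 (212 and 472 CPM) and S100a4, which was of low abundance (2.23 and 5.63 CPM), were the others. Cstb, an inhibitor of cathepsins that was chosen after its values were seen, was at 1493, 2211, 4108 and 7430 CPM. Of the Wnt ligands, secreted growth factors, only Wnt6 and Wnt7b had enough UMIs. Wnt6 was at 146 and 306 CPM (-1.07), and Wnt7b at 0.923 and 7.82 CPM (-3.08). Their median of -2.08 turned to 0.39 when ligands with fewer UMIs were taken in, down to a minimum of 1 UMI.

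The simple epithelial markers Krt7, Krt19, Cdh1, Cldn7 and Esrp1 were each under 1 CPM in cells without Krt8 and in Krt8-high cells. Epcam, a surface adhesion molecule, was at 72.7 CPM without Krt8 and 170 CPM in Krt8-high cells (-1.23). Among 17 factors known to act on keratin promoters, 1 was over 2-fold higher (Gata3, 5.31 and 2.25 CPM) and 1 lower (Gata2, 3.84 and 9.13 CPM), near the shares of all genes (3.5% and 2.46%). Cartilage matrix genes lay in both directions. Col2a1, the main cartilage collagen, was at 128 CPM without Krt8 and 35.5 CPM in Krt8-high cells (1.85), while Col9a1, its partner in the same fibrils, was at 556 and 1309 CPM (-1.23) and Comp at 13.1 and 36.5 CPM (-1.48). Cholesterol synthesis, with 20 genes tested, and MHC class I, with 14, had 0 genes past 2-fold in either direction, which is near the shares of all genes (3.5% and 2.46%) for lists of this size.

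Cells without Krt8 were not 1 cluster. Clustering of the kept neurosphere cells with Krt8 and Krt18 left out of the variable genes gave 11 clusters at a resolution of 1.0, and every cluster held cells without Krt8, from 6.17% (3.0% to 11.1%) to 61.7% (56.1% to 67.2%) of its cells. The highest share was in cluster 7, led by Mbp, Gm4876, Enpp2 and Lsamp, with 192 of 311 cells. Cluster 10 (Tnnt3, Tnni2, Lpcat2, Ccl2 and Fabp7) had 60.0%, with 0 Krt8-high cells, cluster 9 (Cxcl2, Nppb, Cox6a2, Ccl2 and Nupr1) 46.1%, and cluster 1 (Aatk, Depdc1b, Chn2, Aspm and Pif1) 36.3%. By number, cluster 1 held 20.2% and cluster 7 18.2% of the cells without Krt8. The lowest shares were in cluster 8 (Ung, Cdc6, Fam111a, Ccne2 and Brca1) and cluster 5 (Wnt7b, Btbd16, Steap3, Prss56 and Phlda2; 10.3%). Cluster 0 had the lowest median depth, 7594 UMIs, and 13.7% of its cells were without Krt8, whereas cluster 10 had 16379 UMIs. At 5000 UMIs a cell the shares ran from 8.64% in cluster 8 to 78.2% in cluster 10.

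Within the cells without Krt8, the higher genes were spread unevenly over the clusters. Of their 2317 Fabp7 UMIs, 33.1% lay in the 66 cells of cluster 10, where Fabp7 reached 733 CPM, whereas 48.8% of the Mbp UMIs lay in cluster 7, at 1034 CPM, where Fabp7 was at 130 CPM. Nppb lay to 90.3% in cluster 9, and Lcn2 to 45.4% in cluster 9 and 39.96% in cluster 4. Hes5 was spread over cluster 1 (28.8% of its UMIs), cluster 7 (26.4%), cluster 10 (20.0%) and cluster 4 (18.6%). Among 1019 thinned cells, 292 had a Fabp7 UMI and 58 a Hes5 UMI, and 34 had both. Of the cells with Fabp7, 68.2% also had Lhfpl3, against 48.7% of the others. Of those with Lhfpl3, 35.8% had Erbb3 and 49.5% had Mbp, against 14.8% and 29.4% of the others, and of those with Mbp, 18.7% had Enpp2, against 5.26%. Hes5 and Mbp showed no such excess, as 39.7% of cells with Hes5 and 40.4% of the others had Mbp.

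Values within clusters are given as a description, since the genes were picked on these same cells. Clusters 7, 9 and 10, with the highest shares without Krt8, and cluster 8 had fewer than 40 cells of 1 of the groups and were left out. In the other 7 clusters, Lhfpl3 was higher in cells without Krt8 than in Krt8-high cells of the same cluster in 7 of 7, by a log2 fold change of 2.15 to 4.17, and Lsamp in 7 of 7 (1.20 to 2.73). Jag1 (0.48 to 2.88), Sox2 (0.28 to 1.73) and Erbb3 (0.90 to 5.54) were also higher in 7 of 7. Cstb (-3.05 to -1.38) and S100a6 (-2.79 to -0.21) were lower in 7 of 7. Fabp7 was higher in 6 of 7 clusters (-1.15 to 5.59), Notch1 in 6 of 7 (-0.49 to 2.26) and Enpp2 in 2 of 3 (-0.59 to 4.52), and Wnt6 was lower in 4 of 7 (-2.76 to 0.99). This comparison was chosen after seeing the data and used genes with at least 20 UMIs in the cluster.

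**Figure D4:**
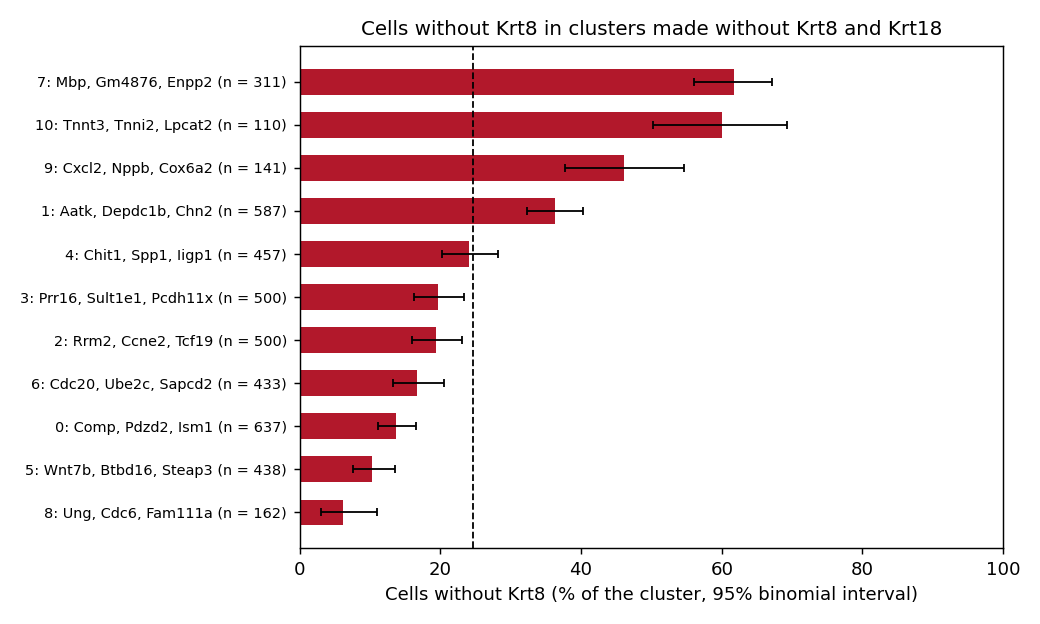
Share of cells without Krt8 in each of 11 clusters made without Krt8 and Krt18 (bars, with exact binomial 95% intervals), labelled by number, 3 leading genes and number of cells; the dashed line is the share in all kept neurosphere cells (24.7%). Clusters 7, 10, 9 and 1 lie above the line, from 36.3% to 61.7%, and cluster 8 is lowest at 6.17%.

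Adherent cells mostly lacked Krt8 as well, which raises the question of whether cells without Krt8 stood near the adherent state. It was addressed with the 50 genes highest in adherent cells and the 50 highest in neurosphere cells, chosen on adherent cells against Krt8-low and Krt8-mid cells together, so that neither group compared had a part in the choice. The 50 adherent-high genes summed to 22647 CPM in adherent cells, 1363 CPM in cells without Krt8, 1549 CPM in Krt8-low and Krt8-mid cells and 2928 CPM in Krt8-high cells. S100a6 and Lgals3 carried that difference: without these 2 genes, which were picked after seeing the data, the sums were 787, 662 and 741 CPM in the 3 neurosphere groups. Of the 22 tested, 5 were over 2-fold higher in cells without Krt8 than in Krt8-high cells and 6 lower, beside 3.5% and 2.46% of all genes, with a median of -0.27. S100a6, at 7353 CPM in adherent cells, and Lgals3, at 4782 CPM, were nearer to that level in Krt8-high cells, while Tm4sf1 (1070 CPM in adherent cells, 79.0 CPM without Krt8, 21.8 CPM in Krt8-high cells) and Tnfaip6 (80.6, 10.4 and 2.56 CPM) were nearer in cells without Krt8.

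The 50 neurosphere-high genes summed to 311 CPM in adherent cells, 14889 CPM in cells without Krt8 and 20315 CPM in Krt8-high cells, with 16 genes over 2-fold lower in cells without Krt8 and 2 higher, beside 2.46% and 3.5% of all genes. Grasp, a scaffold of metabotropic glutamate receptors, was at 29.5, 725 and 2241 CPM in these groups, and Omg, a myelin glycoprotein, at 0, 44.0 and 11.7 CPM. Cells without Krt8 lay nearer to the adherent level than Krt8-high cells did for 25 of the adherent-high and 33 of the neurosphere-high genes. For 50 of 50 genes in each set, however, cells without Krt8 lay nearer to the Krt8-high level than to the adherent level. Library and culture cannot be told apart here, as each condition was 1 library.

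**Figure D5:**
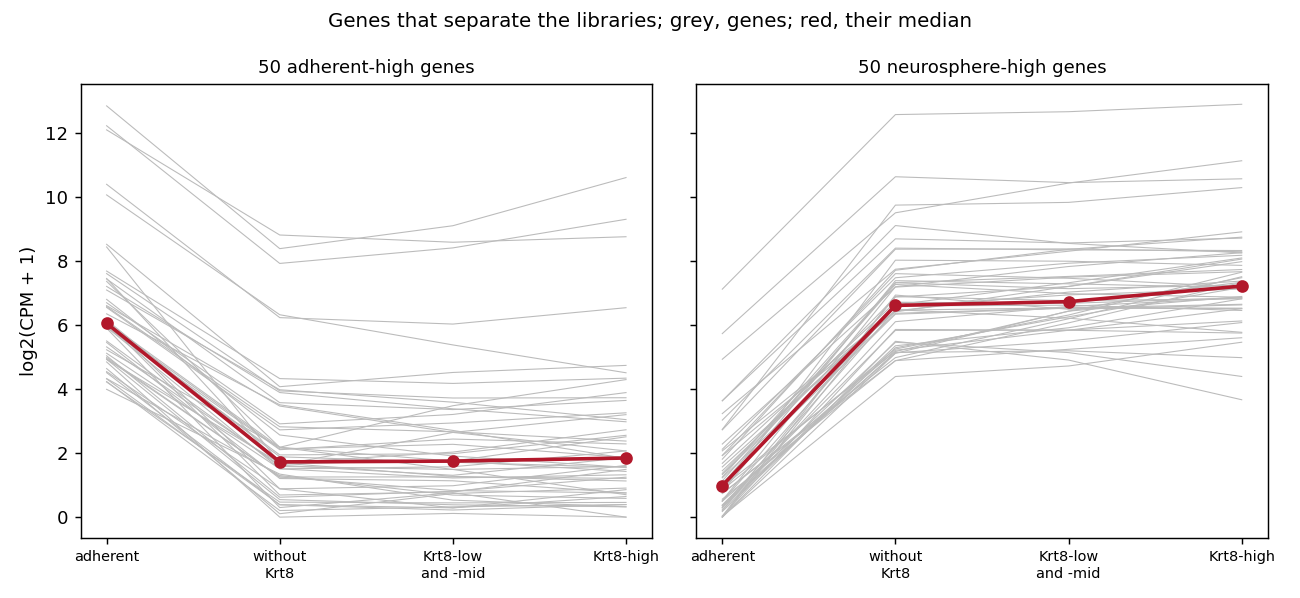
Log2(CPM + 1) of 50 adherent-high genes (left) and 50 neurosphere-high genes (right) in adherent cells, cells without Krt8, Krt8-low and Krt8-mid cells together, and Krt8-high cells; grey lines are genes and red points their median. The median neurosphere-high gene climbs from 0.983 CPM in adherent cells to 96.9 CPM without Krt8, and on to 148 CPM in Krt8-high cells.

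At the edge of 0 Krt8 UMIs, Lhfpl3 and Fabp7 were lower with each further step of Krt8 UMIs. Lhfpl3 was at 316 CPM in cells with 0 Krt8 UMIs, 222 CPM in the 470 cells with 1 UMI, 140 CPM in the 203 cells with 2 UMIs and 102 CPM in the 538 cells with 3 to 10 UMIs. Fabp7 was at 178, 109, 69.1 and 29.2 CPM in the same cells. Ccl2, which few cells carried, had no such order, at 64.8, 10.0, 77.4 and 11.3 CPM. At the edge of the top 25% the order was the other way, with Lhfpl3 at 40.9 CPM in the lowest 100 Krt8-high cells and 19.5 CPM in the 100 cells just under them, and Fabp7 at 48.1 and 15.2 CPM.

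Markers of immune and endothelial cells were at or near 0. Of 8 immune markers, 5 were at 0 UMIs in cells without Krt8, Ptprc and Adgre1 among them, and the sum was 2.61 CPM against 6.94 CPM in Krt8-high cells. Of 4 endothelial markers, 3 were under 1 CPM in both groups, and the sum was 3.31 and 2.94 CPM.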

How the data were processed

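Both libraries are 10x Chromium 3' v3 libraries, and per the labels the submitters' processing notes name Cell Ranger 7.0.1 and mm10. The authors deposited raw counts of UMIs per gene (32285 genes) in 5764 adherent and 4951 neurosphere cells; the setting for reads in introns is not given in the sources used here. From these counts, 13 mitochondrial (mt-) and 101 ribosomal (Rps, Rpl) genes were dropped, and cells with at least 1000 UMIs and 2250 genes (adherent cells 1250 genes) were kept, after the study. This left 5051 adherent and 4276 neurosphere cells, slightly fewer than the study states, and the reason was not tested. UMIs were summed per cell group and divided by the sum left to give CPM. Genes with at least 100 UMIs over both groups were counted by the size of the fold (over 2-fold), with exact conditional intervals and a floor of 3 counts over the group for 0 UMIs. Clustering used Seurat 5.3.0 (R 4.3.3, 18 PCs), TMM scaling edgeR 4.0.16, and the rest Python 3.11.15 (numpy 2.4.6, scipy 1.17.1). Positions are from GENCODE vM21. The code was tested on simulated data.

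Genes are named by a rule: Krt8 and Krt18, the 12 highest and 12 lowest log2 ratios with 1 CPM added, up to 2 at each end of a list, and genes named in the study; further list members are given for context, and some genes that the rule names are not reported here. The cells, the 40 gene lists, the motifs and the rules were chosen with earlier results of these data known.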

Additional observations from a re-analysis of the deposited data

How the results depend on the processing

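The number of cells without Krt8 was 1728 with at most 2 Krt8 UMIs allowed, 577 among cells with at least 10000 UMIs and 553 in the 50% of cells lowest in cycle genes, the last 2 from fewer cells. The higher genes numbered 244 of 9499 tested in thinned cells and 219 of 12279 against all other kept cells, beside 387 of 11045. They numbered 142 of 7343 with a minimum of 500 UMIs and 1619 of 16482 with a minimum of 1 UMI. The lower genes numbered 121 of 7343 with a minimum of 500 UMIs and 1145 of 16482 with a minimum of 1 UMI, beside 272 of 11045. Against Krt8-mid cells (chosen after seeing the data) the lower genes numbered 103 of 11098. Higher genes that were graded over the 4 groups numbered 193, 167, 132 and 810 in thinned cells, against all other kept cells, and with minimums of 500 UMIs and 1 UMI. Krt18 was at a log2 fold change of -4.21 with 5 CPM added and -6.29 against Krt8-mid cells. The lowest share of a cluster without Krt8 was 13.3% at a resolution of 0.5. Krt8 was at 51.7 CPM in cells chosen on a random part of their UMIs and measured in the other. The Wnt ligand median turned from -2.08 to 0.39 with a minimum of 1 UMI, which takes in ligands with few UMIs. The log2 ratio of the summed adherent-high genes turned from -1.10 to 0.0875 without S100a6 and Lgals3 (chosen after seeing the data). Of 371 alternatives for named genes other than Krt18, 275 moved the value by under 1.5-fold, 96 by more, and 0 turned it; Ccl2, with 1 and 2 UMIs left without its top 10 cells, was given no fold there. TMM scaling put the share of higher genes among those past 2-fold at 45.9% in place of 58.7%. The causes of these moves were not tested where the construction does not show them.

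No paired analysis was possible because each condition was 1 library, which likewise leaves no replicate to omit. A gene under 100 UMIs over both groups was not counted, so that 2 of 18 Wnt ligands and 0 of 8 endothelial genes were compared.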

Other observations

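Of the purinergic receptors, which respond to extracellular nucleotides, P2rx4 was at 33.6 CPM in cells without Krt8 and 34.3 CPM in Krt8-high cells, P2ry10 at 45.4 and 45.0 CPM, P2ry1 at 21.5 and 18.8 CPM and P2rx7 at 10.5 and 7.38 CPM. The log2 fold change of P2rx7 was 0.51 (95% counting interval 0.15 to 0.88), and the intervals of the other 3 held 0. The membrane-type metalloproteinases Mmp15 (142 and 108 CPM) and Mmp16 (544 and 413 CPM) were each 1.32-fold higher in cells without Krt8, while Mmp2, the gelatinase that cleaves basement membrane collagen, was 7.41-fold higher, at 16.7 and 2.25 CPM, and at 55.9 CPM in adherent cells.

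Of 13 hypoxia genes tested, 2 were over 2-fold lower in cells without Krt8, beside 2.46% of all genes, among them the glucose transporter Slc2a1 at 83.4, 110, 159 and 222 CPM from cells without Krt8 to Krt8-high cells. The heme-degrading enzyme Hmox1 was at 156 CPM in cells without Krt8 and at 61.1, 52.7 and 58.2 CPM in the others, but 10 cells without Krt8 held 62.5% of their Hmox1 UMIs, and a UMI was present in 24.4% of thinned cells without Krt8 and 22.2% of Krt8-high cells. Among 16 immediate early and dissociation genes, 1 was past 2-fold, near the shares of all genes (3.5% higher and 2.46% lower): Btg2, an antiproliferative gene, at 128 CPM without Krt8 and 329 CPM in Krt8-high cells.

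In the adherent library, 136 cells held 182 Krt8 UMIs, with a median depth of 10305 UMIs against 8205 UMIs in the 4915 cells with none. Krt18 had 2 UMIs in the former and 3 UMIs in the latter.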
